A study of Mus musculus with 18 samples.

Results

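The change from day 0 to day 8 of a pancreatic differentiation protocol was compared between 2 lines of mouse embryonic stem cells, Arf-B and Arf-C, and the control line Ctrlv2. For each gene the quantity reported is a difference of differences on log2(FPKM + 1): the day 8 minus day 0 change averaged over Arf-B and Arf-C, minus the same change in Ctrlv2. FPKM counts fragments relative to gene length and a scale set for each library. A positive difference means that the transcript rose more, or fell less, in the Arf lines than in Ctrlv2, and a negative one the reverse. All 18 of the 18 libraries enter it, and it was tested for 17200 of 54532 genes, those that reached 0.5 FPKM in 3 or more libraries.

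All cells derive from ES-E14TG2a, a line taken from the mouse blastocyst, and every library has the genotype label wild type. The sources used here do not say how Arf-B and Arf-C were made or whether each is 1 clone. The groups are Arf-B, Arf-C and Ctrlv2 at day 8, and Arf-B, Arf-C and Ctrlv2 at day 0, with 3 replicates each. Before the protocol all lines grew on gelatine in serum with leukaemia inhibitory factor. All day 8 cells received activin A (20 ng/mL) with Matrigel from day 0, and retinoic acid (written in the labels as 5 μM/ml) with FGF10 (10 ng/mL) from day 4. The aim of the protocol is definitive endoderm and then posterior foregut endoderm, and the study's title speaks of p19Arf in pancreatic differentiation. The replicates are not stated to be separate cultures, so p-values measure only the spread between these libraries, which may be technical.

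p19Arf is the alternative reading frame protein of Cdkn2a, a locus that also encodes the cyclin kinase inhibitor p16Ink4a. It binds Mdm2, the ubiquitin ligase that marks Trp53 for degradation, and so stabilises Trp53, and it is held in the nucleolus by Npm1. Leaving the embryonic stem cell state means shutting down the factors of naive pluripotency, Nanog and Esrrb among them, while activin and retinoic acid switch on endoderm and patterning genes.

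Cdkn2a (chromosome 4, 89274471 to 89294653, mm10) was measured in every library first. The 3 libraries of Arf-B read 44.7, 43.2 and 40.1 FPKM at day 8 and 1.67, 2.14 and 2.14 at day 0, and those of Arf-C 46.3, 42.6 and 43.3 at day 8 and 2.18, 2.31 and 2.37 at day 0. The Ctrlv2 libraries read 32.5, 32 and 34.3 FPKM at day 8 and 2.92, 1.89 and 3.36 at day 0. All 9 day 8 libraries lay above all 9 day 0 libraries, and at day 8 the 6 Arf libraries lay above the 3 Ctrlv2 libraries. The change was 3.83 in the Arf lines and 3.21 in Ctrlv2, a difference of 0.62, SE 0.14, adjusted p = 0.00192. One value per gene cannot tell the p19Arf transcript from that of p16Ink4a, so it does not check what was done to the Arf lines. Cdkn2b, the neighbouring gene for p15Ink4b, had 4.39 ± 0.507 FPKM in Arf-B, 4.55 ± 0.254 in Arf-C and 4.7 ± 1.21 in Ctrlv2 cells at day 8, with a difference of -0.15, SE 0.18, adjusted p = 0.54, which did not pass the test.

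Libraries held between 10432590 and 33311220 reads on genes, a 3.19-fold range, with Ctrlv2 at day 8 the shallowest group. A gene of 1 kilobase with 3 reads has 0.093 to 0.282 FPKM at these depths. The 7 embryonic stem cell markers (Pou5f1, Nanog, Sox2, Zfp42, Esrrb, Klf4, Tfcp2l1) all reached 0.5 FPKM in every group. Their sum at day 8 was 158.4 to 220.9 FPKM in Arf-B, 132.4 to 244.2 in Arf-C and 46.6 to 54.8 in Ctrlv2 cells. At day 0 it was 1648.6 to 1798.3 FPKM in Arf-B, 1820.3 to 1897.4 in Arf-C and 2028.0 to 2106.0 in Ctrlv2 cells. The 4 definitive endoderm markers (Sox17, Foxa2, Cxcr4, Gata6) together gave 6.87 to 7.5 FPKM in Arf-B, 8.08 to 9.81 in Arf-C and 9.79 to 13.1 in Ctrlv2 cells at day 8. Sox17 and Cxcr4 were below 0.5 FPKM on average in both Arf lines at day 8, and Cxcr4 in Ctrlv2. Cxcr4 had averaged 0.704 FPKM in Arf-B, 1.02 in Arf-C and 0.653 in Ctrlv2 cells at day 0. Pdx1, which marks posterior foregut and pancreas, had 0.506 ± 0.312 FPKM in Arf-B, 0.363 ± 0.0875 in Arf-C and 0.137 ± 0.043 in Ctrlv2 cells at day 8 and was too low to test. At day 0 the definitive endoderm sum was 0.647 to 1.16 FPKM in Arf-B, 1.06 to 1.51 in Arf-C and 0.868 to 0.946 in Ctrlv2 cells. The sum thus rose by day 8 in every line, with Foxa2 and Gata6 above 0.5 FPKM, while Sox17, Cxcr4 and Pdx1 were low. No marker of blood or endothelium on its list (Ptprc, Tyrobp, Cdh5, Tie1) reached 0.5 FPKM at day 8 in any line.

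The day response differed between the Arf lines and Ctrlv2 for 7171 genes (41.7% of those tested, limma with Benjamini-Hochberg adjustment, adjusted p below 0.05). Of these, 3669 (21.3% of the genes tested) had a positive and 3502 (20.4%) a negative difference. At least 2-fold differences were called for 600 genes upwards (3.49%) and 450 downwards (2.62%). The median over all genes was 0.00. When each library was scaled to the same sum the split was 4267 positive to 2800 negative, 60.4% positive against 51.2% in the main fit, and the median of all genes moved by 0.06. The counts of each list below stand beside that background of 41.7%.

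Each line's response minus that of Ctrlv2 was called for 5770 genes in Arf-B (33.5%) and 6592 in Arf-C (38.3%), and these comparisons share the 6 Ctrlv2 libraries. The responses of Arf-B and Arf-C, compared with each other without Ctrlv2, were called different for 4 genes (0.0233%), and 1377 had an unadjusted p below 0.05. The median size of the difference was 0.28 for the Arf lines against Ctrlv2 and 0.12 for Arf-B against Arf-C. The 95th percentile of that size was 1.11 for the Arf lines against Ctrlv2 and 0.49 for Arf-B against Arf-C.

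**Figure D1:**
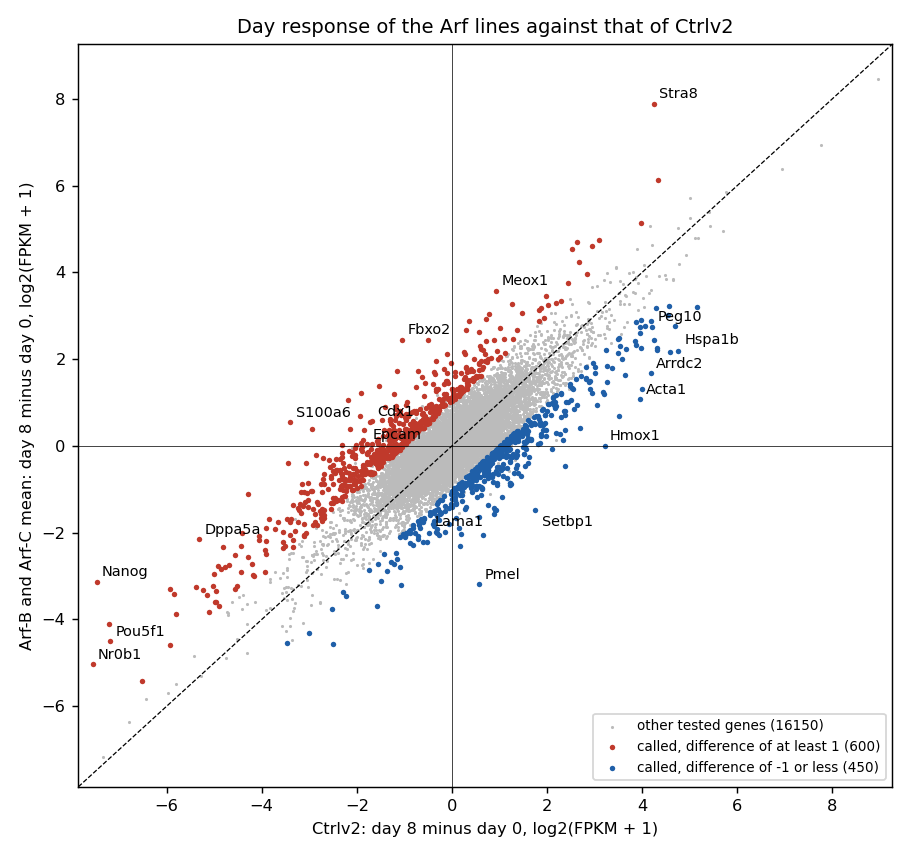
Day 8 minus day 0 on log2(FPKM + 1) for each of 17200 genes, with the mean of Arf-B and Arf-C on the vertical axis and Ctrlv2 on the horizontal axis; genes on the dashed line changed by the same amount. The 600 red genes lie at least 1 above the line and the 450 blue genes at least 1 below it, with Nanog, Nr0b1 and Pou5f1 among the genes that fell less in the Arf lines and Hmox1 and Acta1 among those that rose less.

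A difference in response can come from a gap between the lines that opens during differentiation or from one that was already there in stem cells. Among the 7171 genes called, the Arf lines differed from Ctrlv2 at day 0 alone for 2895 (40.4%) and at day 8 alone for 2022 (28.2%). Another 1327 (18.5%) had a gap at both days with opposite sign, 697 (9.72%) one at both days with the same sign, and 230 a gap at neither day. Over all 17200 genes tested the shares were 25.3% at day 0 alone, 18.4% at day 8 alone and 7.72% with opposite sign. The same sign at both days made up 13.1% of all genes tested, and a gap at neither day 35.4%. The genes were also sorted by the called responses of Ctrlv2 and of the mean of the Arf lines. On that basis 1265 genes fell in both but less in the Arf lines (17.6% of those called, 16.6% of all tested). Another 1161 rose in both but less in the Arf lines (16.2% against 15.2%), and 775 moved in opposite directions (10.8% against 4.51%). Larger rises in the Arf lines numbered 782 (10.9% against 11.5%) and larger falls 605 (8.44% against 10.6%). Apart from opposite directions, these shares were near those of all genes tested. Nanog, Dppa5a, Hmox1 and Acta1 belong to the genes whose gap was called at day 8 alone. S100a6, Stra8 and Setbp1 differed far more at day 0 than at day 8.

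**Figure D2:**
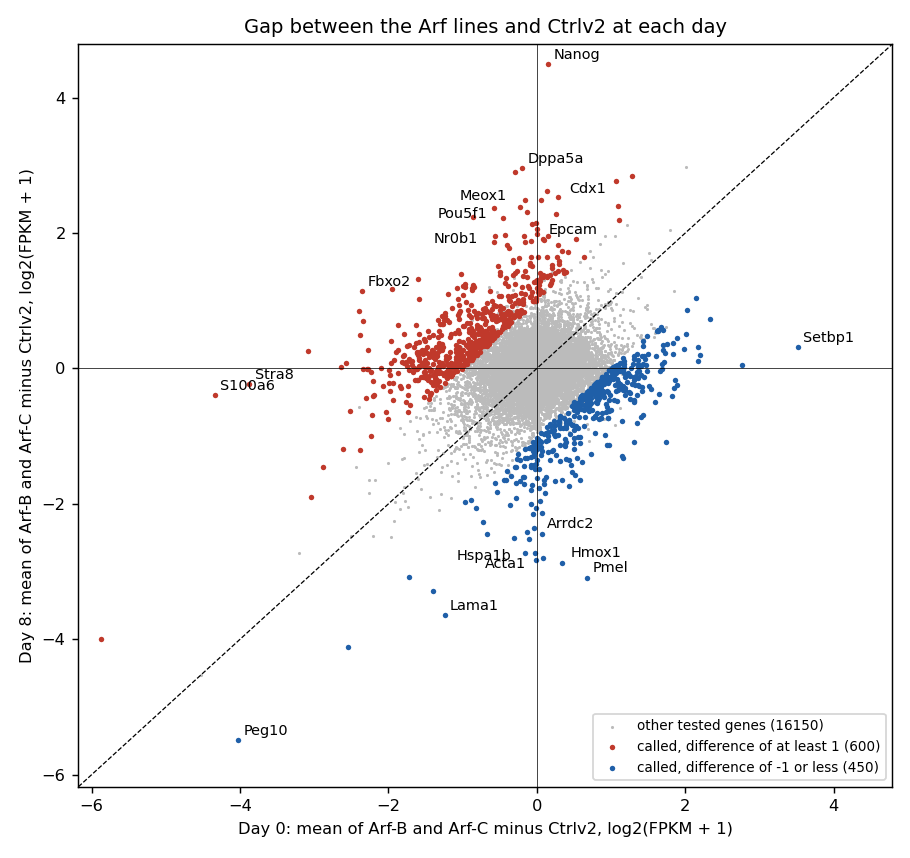
Arf minus Ctrlv2 on log2(FPKM + 1) at day 8 (vertical) and at day 0 (horizontal) for 17200 genes, with genes on the dashed line keeping the same gap. Nanog, with a gap of 4.49 at day 8 and 0.15 at day 0, sits at the top, Setbp1 at the far right (0.32 at day 8 and 3.52 at day 0), and Peg10 at the bottom left, below the dashed line.

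Of the 19 naive pluripotency genes tested, 17 had a positive difference and none a negative one, and the median was 1.17. The gene with the largest difference among all named genes was Nanog (chromosome 6, 122707489 to 122714633, mm10), a homeodomain factor of naive pluripotency. In FPKM, the Arf-B libraries gave 27.6, 30.1 and 46 at day 8 and 297, 304 and 200.2 at day 0, and the Arf-C libraries 19.5, 33.8 and 45.2 at day 8 and 332, 301 and 335 at day 0. In Ctrlv2 the values were 0.694, 0 and 0.916 FPKM at day 8 and 271, 248 and 267 at day 0. At day 0 Arf-B overlapped Ctrlv2 and Arf-C lay above Ctrlv2. At day 8 every Arf library lay far above the Ctrlv2 libraries, 1 of which read 0. The difference was 4.34, SE 0.35, adjusted p = 2.6e-07, with 4.55 in Arf-B and 4.14 in Arf-C. Bulk libraries cannot tell fewer cells that keep a transcript from less of it in each cell, here or in any result that follows.

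Dppa5a, an RNA-binding protein of pluripotent cells, had 558 ± 89.1 FPKM in Arf-B, 536 ± 127 in Arf-C and 69 ± 10.6 in Ctrlv2 cells at day 8, and 2434 ± 171 FPKM in Arf-B, 2402 ± 409 in Arf-C and 2763 ± 40.1 in Ctrlv2 cells at day 0 (difference 3.16, SE 0.20, adjusted p = 1.81e-08). Its day 8 mean was 22.9% of the day 0 mean in Arf-B, 22.3% in Arf-C and 2.5% in Ctrlv2. The same share was 10.4% of the day 0 mean in Arf-B, 9.98% in Arf-C and 1.77% in Ctrlv2 for Esrrb, an orphan nuclear receptor of the naive network (difference 2.15). It was 2.62% of the day 0 mean in Arf-B, 2.42% in Arf-C and 0.117% in Ctrlv2 for Nr0b1, encoding the nuclear receptor cofactor Dax1 (difference 2.52). Zfp42, the stem cell marker Rex1, kept 9.81% of the day 0 mean in Arf-B, 10.3% in Arf-C and 2.47% in Ctrlv2 (difference 1.92). Over the 19 genes the median share left was 10.9% in Arf-B, 10.2% in Arf-C and 2.47% in Ctrlv2. It was above that of Ctrlv2 for all 19 genes in Arf-B and for 18 in Arf-C, the exception being Tbx3. Gbx2, a homeobox gene, had the highest shares, 80.6% in Arf-B, 116.0% in Arf-C and 39.4% in Ctrlv2. Klf4 (difference 0.69, SE 0.19, adjusted p = 0.00915) was among the smaller differences called. Pecam1 (0.65, SE 0.22, adjusted p = 0.024) lost its call without Ctrlv2 day 0 replicate 1 (adjusted p = 0.067) or 3 (0.0521) or Ctrlv2 day 8 replicate 3 (0.0531), and with no filter (0.0518).

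**Figure D3:**
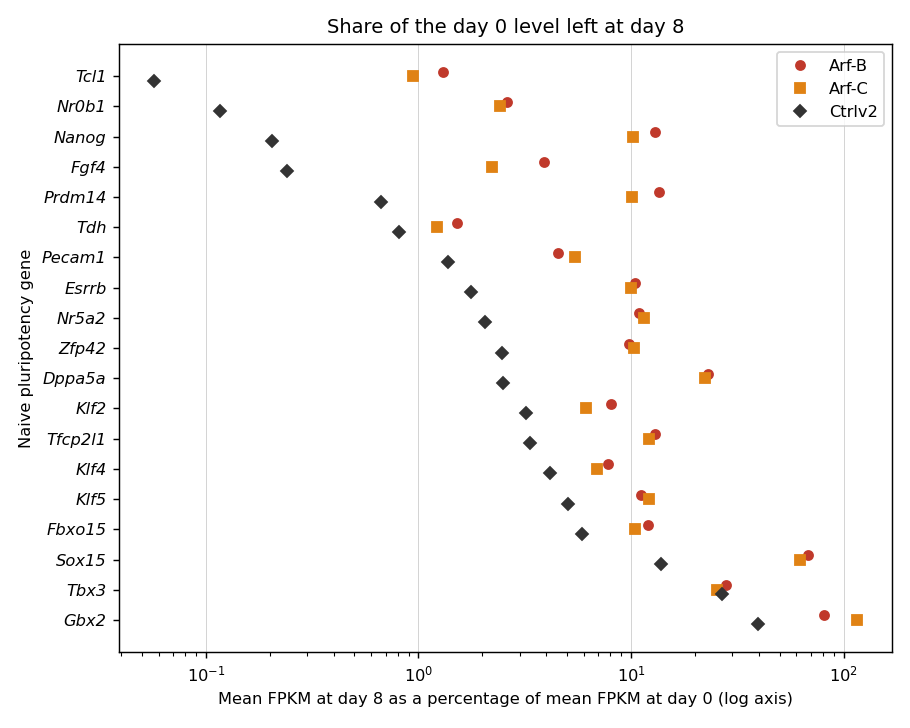
Mean FPKM at day 8 as a percentage of the mean at day 0 for the 19 naive pluripotency genes, on a log axis, in Arf-B, Arf-C and Ctrlv2 (n = 3 libraries per mean). The diamonds of Ctrlv2 lie to the left of both Arf symbols for 18 genes, and Tbx3 is the exception.

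Of 13 core pluripotency genes, 6 had a positive and 1 a negative difference (median 0.34). Pou5f1 (chromosome 17, 35506018 to 35510772, mm10) encodes Oct4. At day 8 the Arf-B libraries had 20.2, 25.6 and 26.3 FPKM, the Arf-C libraries 11.9, 17.3 and 23.3 and the Ctrlv2 libraries 2.88, 3.73 and 3.97. At day 0 the Arf-B libraries had 466, 498 and 518 FPKM, the Arf-C libraries 417, 508 and 461 and the Ctrlv2 libraries 691, 604 and 676. The day 8 ranges of the Arf lines and Ctrlv2 did not overlap, while at day 0 Ctrlv2 was the highest group. The difference was 2.69, SE 0.21, adjusted p = 1.71e-07. Sox2, the partner of Oct4, had 52.3 ± 6.95 FPKM in Arf-B, 59.7 ± 14.3 in Arf-C and 25.1 ± 2.36 in Ctrlv2 cells at day 8 (difference 1.32, SE 0.17, adjusted p = 1.74e-05). Utf1, a chromatin protein of stem cells, differed by 2.13. Rif1, a telomere and replication timing protein, had a negative difference of -1.01, SE 0.32, adjusted p = 0.0195, from 56.5 ± 2.06 FPKM in Arf-B, 55.5 ± 9.42 in Arf-C and 22.3 ± 12.6 in Ctrlv2 cells at day 0. Sall4, Lin28a and L1td1, all of this list, did not pass the test, with shares left of 96.6% in Arf-B, 131.0% in Arf-C and 98.7% in Ctrlv2 for Lin28a.

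Genes of the formative and primed stages split, with 4 of 12 positive and 4 negative (median -0.13). Etv4, an ETS factor downstream of Fgf signalling, had 1.83 ± 0.259 FPKM in Arf-B, 1.23 ± 0.436 in Arf-C and 0.578 ± 0.097 in Ctrlv2 cells at day 8, and 41.6 ± 7.36 FPKM in Arf-B, 30.9 ± 4.16 in Arf-C and 87.1 ± 2.09 in Ctrlv2 cells at day 0 (difference 1.93, SE 0.17, adjusted p = 5.2e-07). Foxd3 differed by 1.48, while the zinc finger genes Zic2 (-1.60) and Zic5 (-1.496) had negative differences. Zic2 had 8.04 ± 0.867 FPKM in Arf-B, 7.17 ± 0.617 in Arf-C and 0.714 ± 0.19 in Ctrlv2 cells at day 0. Among 13 preimplantation genes 3 were positive and 5 negative. Ooep, an oocyte protein gene also active in stem cells, had 7.41 ± 1.44 FPKM in Arf-B, 7.87 ± 2.29 in Arf-C and 0.395 ± 0.192 in Ctrlv2 cells at day 8 (difference 2.48), and Khdc3 had a difference of -1.66. In the Lif receptor, Jak and Stat3 list, 5 of 16 were positive and 8 negative. Lifr, the receptor for leukaemia inhibitory factor, had 3.08 ± 0.114 FPKM in Arf-B, 3.21 ± 0.192 in Arf-C and 8.71 ± 1.33 in Ctrlv2 cells at day 8 (difference -1.43, SE 0.11, adjusted p = 1.4e-07). The feedback genes Socs2 (-0.70) and Socs3 (-0.67) also had negative differences, and the kinase gene Pim1 a positive one (0.86).

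Genes of primitive and parietal endoderm, the extraembryonic layers that lay down the basement membrane of the yolk sac, leaned the other way. Of 22 tested, 18 had a negative and 1 a positive difference, with a median of -0.86. Lama1 (chromosome 17, 67697259 to 67822647, mm10) encodes the alpha chain of laminin-111. Day 8 libraries of Arf-B gave 3.99, 4.55 and 5.59 FPKM, those of Arf-C 4.48, 4.82 and 5.16 and those of Ctrlv2 75.7, 52.8 and 88.9. Day 0 libraries of Arf-B gave 14.1, 11.3 and 15.8 FPKM, those of Arf-C 19.8, 13.7 and 16.2 and those of Ctrlv2 40.2, 35.4 and 34.9. In Ctrlv2 it rose and in both Arf lines it fell, so that the day 8 groups did not overlap. The difference was -2.40, SE 0.21, adjusted p = 4.99e-07, and the gap was present at day 0 already (-1.24) and larger at day 8 (-3.65). Col4a1, a chain of collagen IV, had 12.9 ± 1.1 FPKM in Arf-B, 15.7 ± 0.721 in Arf-C and 72.9 ± 11.9 in Ctrlv2 cells at day 8, and 1.97 ± 0.088 FPKM in Arf-B, 2.09 ± 0.254 in Arf-C and 4 ± 0.264 in Ctrlv2 cells at day 0 (difference -1.54, SE 0.12, adjusted p = 1.28e-07). Col4a2 differed by -1.01 and Lamb1, the laminin beta chain, by -0.55. The receptor gene Pth1r (-1.07), a marker of parietal endoderm, and the adaptor gene Dab2 (-0.52) also rose less in the Arf lines. Srgn, a proteoglycan core protein, had 0.316 ± 0.0801 FPKM in Arf-B, 0.334 ± 0.261 in Arf-C and 12.1 ± 3.26 in Ctrlv2 cells at day 8. Its difference of -1.89 was not called in a voom fit to whole reads, which works on ratios (-0.66, adjusted p = 0.419).

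Within the wider list of basement membrane genes 7 of 18 were positive and 7 negative (median 0.09), with Lama1, Col4a1 and Col4a2 among the negative ones. When the list was limited to genes averaging 1 FPKM or more, its median was -0.25. The 7 parietal endoderm markers summed to 97.3 to 100.5 FPKM in Arf-B, 99.6 to 110.3 in Arf-C and 336.4 to 451.0 in Ctrlv2 cells at day 8. At day 0 the sums were 44.6 to 54.6 FPKM in Arf-B, 45.7 to 50.7 in Arf-C and 124.6 to 143.6 in Ctrlv2. Thbd, one of the markers, stayed below 0.5 FPKM in all groups. Of the visceral endoderm markers Afp and Apoa1 were below 0.5 FPKM in every group, and Ttr exceeded it in Ctrlv2 at day 8 only. What share of the difference goes with such cells was not tested.

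The transcription factors that endoderm lineages share were divided. In the definitive endoderm list 5 of 14 were positive and 3 negative (median 0.15). Gata4, a zinc finger factor of endoderm and heart, had 6.39 ± 0.309 FPKM in Arf-B, 7.01 ± 0.499 in Arf-C and 25 ± 1.69 in Ctrlv2 cells at day 8, and 1.57 ± 0.276 FPKM in Arf-B, 2 ± 0.331 in Arf-C and 1.72 ± 0.282 in Ctrlv2 cells at day 0 (difference -1.79, SE 0.12, adjusted p = 2.95e-08). Gata6 (2.28 ± 0.291 FPKM in Arf-B, 2.68 ± 0.0503 in Arf-C and 6.47 ± 0.814 in Ctrlv2 cells at day 8, difference -0.99, SE 0.10, adjusted p = 1.91e-06) also rose less, although on the ratio scale of voom its difference was 0.01. Sox17 had 0.233 ± 0.0278 FPKM in Arf-B, 0.256 ± 0.147 in Arf-C and 1.17 ± 0.282 in Ctrlv2 cells at day 8 (difference -0.78, SE 0.13, adjusted p = 0.000191). Foxa1, a pioneer factor of endoderm, had 10.6 ± 1.05 FPKM in Arf-B, 10.8 ± 0.594 in Arf-C and 3.62 ± 0.805 in Ctrlv2 cells at day 8 and a positive difference (1.22, SE 0.13, adjusted p = 2.53e-06) that voom did not call (0.75, adjusted p = 0.19). Foxa2 (0.26, SE 0.15, adjusted p = 0.186) and Cxcr4 (0.03, SE 0.15, adjusted p = 0.904) did not pass the test. Kit, a receptor of stem cell factor that also marks definitive endoderm, had 18.3 ± 0.872 FPKM in Arf-B, 19.7 ± 2.21 in Arf-C and 6.84 ± 0.522 in Ctrlv2 cells at day 8 (difference 1.29, SE 0.10, adjusted p = 1.21e-07).

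Of the 12 posterior foregut and gut tube genes 2 were positive and 4 negative, and of 11 pancreatic progenitor genes 5 were positive and 3 negative. Prox1, a homeobox gene of liver and pancreas buds, had 1.3 ± 0.0917 FPKM in Arf-B, 1.36 ± 0.245 in Arf-C and 2.89 ± 0.241 in Ctrlv2 cells at day 8 (difference -0.75, SE 0.099, adjusted p = 2.23e-05). Ihh, a Hedgehog ligand of gut endoderm, differed by -0.67. Dlk1 had 23.8 ± 3.04 FPKM in Arf-B, 20.2 ± 5.54 in Arf-C and 13.6 ± 2.44 in Ctrlv2 cells at day 8 (difference 0.67, SE 0.19, adjusted p = 0.00924), a call not made by voom (0.85, adjusted p = 0.232). Of 9 endocrine genes 4 were positive and 1 negative. Ins2, an insulin gene, had 43 reads over the 3 Arf-B libraries and 31 over the 3 Arf-C libraries at day 8, and none in the 12 others, with 0.489 ± 0.139 FPKM in Arf-B, 0.477 ± 0.136 in Arf-C and 0 ± 0 in Ctrlv2 cells at day 8. The difference was 0.56, SE 0.11, adjusted p = 0.000654. Ins2 passed the filter only through Arf libraries at day 8, so that test is not independent of the values that admitted the gene. The floor of 3 reads on a 1 kilobase gene is up to 0.282 FPKM, so its levels lie near the lower end of what the depth shows. Ins1, the other insulin gene, had 0 reads in every group. Mafa, a factor of beta cells, had 2.14 ± 0.474 FPKM in Arf-B, 2 ± 0.535 in Arf-C and 0.733 ± 0.231 in Ctrlv2 cells at day 8. At day 0 it had 1.76 ± 0.415 FPKM in Arf-B, 1.85 ± 0.195 in Arf-C and 2.15 ± 0.0292 in Ctrlv2 cells. Mafa thus fell in Ctrlv2 and changed little in the Arf lines (difference 0.996, SE 0.18, adjusted p = 0.000351). Chga differed by 1.48 through its day 0 levels.

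Of the 16 contractile genes tested, 8 had a negative and 3 a positive difference (median -0.31). Acta1 (chromosome 8, 123891769 to 123894751, mm10) encodes skeletal alpha actin. The 3 libraries of Arf-B read 1.64, 1.75 and 1.15 FPKM at day 8 and 0.103, 0.204 and 0.0893 at day 0, and those of Arf-C 1.42, 1.29 and 1.02 at day 8 and 0, 0.246 and 0.0775 at day 0. The Ctrlv2 libraries read 14.4, 15.1 and 16.8 FPKM at day 8 and 0.0446, 0 and 0.121 at day 0. It was near the floor in every day 0 library, and the 3 Ctrlv2 libraries at day 8 lay above all 6 Arf libraries. The difference was -2.88, SE 0.13, adjusted p = 7.69e-10. Acta2, smooth muscle actin, had 1.62 ± 0.283 FPKM in Arf-B, 1.36 ± 0.411 in Arf-C and 15.7 ± 4.53 in Ctrlv2 cells at day 8 and was listed at 0 in all Arf day 0 libraries. Its difference was -2.70, SE 0.18, adjusted p = 2.95e-08, which voom did not call (-2.55, adjusted p = 0.064). Cnn1, calponin, had 0.807 ± 0.195 FPKM in Arf-B, 0.736 ± 0.201 in Arf-C and 4.57 ± 0.598 in Ctrlv2 cells at day 8 (difference -1.997, SE 0.14, adjusted p = 3.21e-08). Myl9, a regulatory myosin light chain, had 7.69 ± 1.33 FPKM in Arf-B, 7.36 ± 0.939 in Arf-C and 26.9 ± 5.88 in Ctrlv2 cells at day 8 (difference -1.53, SE 0.17, adjusted p = 3.41e-06), and on the ratio scale of voom the sign turned (0.20, adjusted p = 0.861). Actc1, cardiac actin, had 0.128 ± 0.0629 FPKM in Arf-B, 0.0254 ± 0.022 in Arf-C and 1.91 ± 0.555 in Ctrlv2 cells at day 8 (difference -1.41, SE 0.14, adjusted p = 1.1e-06). Actin genes share much of their coding sequence, so the split of reads between Acta1, Acta2 and other actins is uncertain.

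The CArG box, the sequence bound by serum response factor, was searched on both strands of windows from 250 bases before to 50 after each RefSeq gene start (GRCm38.p6). Of the 17200 genes tested, 11076 had a window, and a symbol was counted once below. The box was found in 13 of 293 genes lower by at least 2-fold in the Arf lines (4.44%), in 5 of 395 higher (1.27%) and in 158 of 10386 others (1.52%), against 1.63% of all windows. In the contractile list 4 of 15 genes with a window had it (Acta1, Actc1, Cnn2 and Myl9). The windows of 3 of these are shown because they hold the match at different distances from the start, which is 73 bases before it in Acta1 (chr8:123894726-123895025, minus strand), 47 in Actc1 (chr2:114052826-114053125, minus strand) and 161 in Myl9 (chr2:156775214-156775513, plus strand). Capitals mark the CArG box, and a match is a description of letters and not a bound site.
Acta1: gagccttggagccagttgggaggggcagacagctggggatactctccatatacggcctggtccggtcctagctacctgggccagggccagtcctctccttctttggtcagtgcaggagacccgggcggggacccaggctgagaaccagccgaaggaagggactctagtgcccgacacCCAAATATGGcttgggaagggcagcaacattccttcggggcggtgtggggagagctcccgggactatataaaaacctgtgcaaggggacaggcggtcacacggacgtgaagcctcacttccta
Actc1: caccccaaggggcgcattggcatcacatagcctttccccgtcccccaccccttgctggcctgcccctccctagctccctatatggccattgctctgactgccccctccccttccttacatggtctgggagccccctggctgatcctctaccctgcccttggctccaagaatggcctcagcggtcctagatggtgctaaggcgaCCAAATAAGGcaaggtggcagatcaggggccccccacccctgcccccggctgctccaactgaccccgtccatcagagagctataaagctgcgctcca
Myl9: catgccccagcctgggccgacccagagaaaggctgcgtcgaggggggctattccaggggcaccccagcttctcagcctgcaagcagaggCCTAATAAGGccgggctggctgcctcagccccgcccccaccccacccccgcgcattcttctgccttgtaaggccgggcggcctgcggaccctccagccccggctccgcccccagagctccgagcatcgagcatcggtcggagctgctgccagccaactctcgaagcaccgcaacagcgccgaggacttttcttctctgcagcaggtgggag

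Lists of stress genes differed among themselves. Hmox1 (chromosome 8, 75093621 to 75100589, mm10), the inducible heme oxygenase, was the leading member of the heme, ferritin and Nrf2 list. In FPKM, the Arf-B libraries gave 46.5, 55.9 and 48.6 at day 8 and 42.2, 45.7 and 43.6 at day 0, and the Arf-C libraries 55.1, 34.8 and 35.4 at day 8 and 46.3, 48.1 and 44.8 at day 0. In Ctrlv2 the values were 199, 519.7 and 371 FPKM at day 8 and 39.4, 33.4 and 34.3 at day 0. The 6 Arf libraries at day 8 lay in the range of the day 0 libraries or just above it, while the 3 Ctrlv2 libraries at day 8 were all higher and spread widely. The difference was -3.20, SE 0.30, adjusted p = 1.39e-06. Of 17 genes on the list 10 were negative and 4 positive (median -0.55). Gclm, the modifier subunit of glutathione synthesis, had 8.45 ± 0.573 FPKM in Arf-B, 8.34 ± 0.628 in Arf-C and 15.7 ± 3.67 in Ctrlv2 cells at day 8 (difference -1.25). Ftl1, the ferritin light chain, had 121 ± 9.14 FPKM in Arf-B, 140.0 ± 6.04 in Arf-C and 225 ± 26.6 in Ctrlv2 cells at day 8, and 209.5 ± 14.6 FPKM in Arf-B, 247 ± 25.3 in Arf-C and 173 ± 11 in Ctrlv2 cells at day 0 (difference -1.17). Mt2, a metallothionein, had a positive difference (1.29, SE 0.42, adjusted p = 0.0214) that was lost without Ctrlv2 day 0 replicate 2 or 3 or Ctrlv2 day 8 replicate 1 or 3, with adjusted p from 0.0537 to 0.0664.

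Of 17 immediate early and stress genes 6 were negative and 1 positive (median -0.38), in all a share near the 41.7% of all genes. Hspa1b, an inducible Hsp70 chaperone, had 7.5 ± 1.4 FPKM in Arf-B, 5.28 ± 1.02 in Arf-C and 51.6 ± 25.7 in Ctrlv2 cells at day 8, and 0.64 ± 0.28 FPKM in Arf-B, 0.573 ± 0.0977 in Arf-C and 0.784 ± 0.184 in Ctrlv2 cells at day 0 (difference -2.57, SE 0.34, adjusted p = 3.08e-05). Hspa1a had 5.42 ± 0.77 FPKM in Arf-B, 3.22 ± 0.905 in Arf-C and 31.8 ± 16.4 in Ctrlv2 cells at day 8 (difference -2.42, SE 0.34, adjusted p = 5.36e-05), not called by voom (-2.05, adjusted p = 0.292). Their near-identical sequences make the split of reads between them uncertain. Outside these lists, Hspb8, a small heat shock protein gene, had 4.89 ± 0.0903 FPKM in Arf-B, 5.03 ± 0.969 in Arf-C and 29.6 ± 4.87 in Ctrlv2 cells at day 8 (difference -2.31), and Arrdc2, an arrestin domain gene, had 13.8 ± 1.75 FPKM in Arf-B, 9.96 ± 1.94 in Arf-C and 67.7 ± 0.252 in Ctrlv2 cells at day 8 (difference -2.51). In the Atf4 and amino acid stress list 7 of 22 were positive and 6 negative. Ddit3, which encodes Chop, had 47.6 ± 5.27 FPKM in Arf-B, 42.8 ± 4.81 in Arf-C and 64.3 ± 16.5 in Ctrlv2 cells at day 8, and 42.9 ± 8.28 FPKM in Arf-B, 48.8 ± 2.11 in Arf-C and 21.1 ± 3.38 in Ctrlv2 cells at day 0 (difference -1.56, SE 0.22, adjusted p = 4.52e-05), while the amino acid transporter gene Slc7a5 differed by 0.93.

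The start windows of Hspa1a (chr17:34972107-34972406, minus strand) and Hspa1b (chr17:34959189-34959488, minus strand) are shown because the pair moved together. They share 296 of 300 bases (98.7%). Each holds 1 match to GAANNTTC, the core of the heat shock element, which reads the same on both strands, 104 bases before the start. The octamer ATGCAAAT was searched in the same way and found in 2.53% of the genes higher, 3.07% of those lower and 1.6% of the others, and the antioxidant response core TGACNNNGC in 13.7% of those higher, 17.7% of those lower and 16.8% of the others. GAANNTTC is found in 7.86% of all windows, in 24 of 293 genes lower by at least 2-fold (8.19%), in 25 of 395 higher (6.33%) and in 7.01% of the others. By list, it was in 4 of 13 immediate early and stress genes with a window (30.8%). The octamer was in 1 of 12 naive pluripotency genes (8.33%) and the antioxidant core in 7 of 12 heme, ferritin and Nrf2 genes (58.3%). A retinoic acid direct repeat was found in 0 of 395 genes higher and 0 of 293 lower. Capitals mark the GAANNTTC match.
Hspa1a: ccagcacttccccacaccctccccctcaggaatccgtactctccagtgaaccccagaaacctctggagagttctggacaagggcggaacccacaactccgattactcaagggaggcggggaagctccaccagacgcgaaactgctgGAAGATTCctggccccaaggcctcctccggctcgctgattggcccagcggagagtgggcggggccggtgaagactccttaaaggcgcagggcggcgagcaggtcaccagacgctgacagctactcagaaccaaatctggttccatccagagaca
Hspa1b: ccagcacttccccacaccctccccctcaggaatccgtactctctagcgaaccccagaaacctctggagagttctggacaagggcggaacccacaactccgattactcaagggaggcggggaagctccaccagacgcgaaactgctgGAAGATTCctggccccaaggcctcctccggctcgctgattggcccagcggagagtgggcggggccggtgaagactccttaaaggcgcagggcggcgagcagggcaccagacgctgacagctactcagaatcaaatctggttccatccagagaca

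Of 23 epithelial genes 12 had a positive difference and none a negative one (median 0.42). Epcam, an epithelial adhesion molecule that stem cells also carry, had 91 ± 4.87 FPKM in Arf-B, 86.8 ± 4.39 in Arf-C and 23.1 ± 2.49 in Ctrlv2 cells at day 8, and 95 ± 5.13 FPKM in Arf-B, 78.1 ± 8.32 in Arf-C and 81.3 ± 3.58 in Ctrlv2 cells at day 0 (difference 1.82, SE 0.10, adjusted p = 4.45e-09). Cdh1, E-cadherin, moved in opposite directions in the Arf lines and in Ctrlv2 (0.20 in the Arf lines and -0.79 in Ctrlv2, difference 0.997). Cldn3, a tight junction claudin, had 25 ± 2.49 FPKM in Arf-B, 26 ± 0.44 in Arf-C and 2.89 ± 0.513 in Ctrlv2 cells at day 8 (difference 1.71, SE 0.16, adjusted p = 7.87e-07), and Grhl2, a transcription factor of epithelia, differed by 1.22. In the mesenchymal list 7 of 13 were negative and 4 positive (median -0.41). Vim, vimentin, had 19.7 ± 0.74 FPKM in Arf-B, 18.9 ± 0.499 in Arf-C and 29.3 ± 4.59 in Ctrlv2 cells at day 8, and 38.8 ± 4.72 FPKM in Arf-B, 40.4 ± 2.45 in Arf-C and 20.1 ± 1.01 in Ctrlv2 cells at day 0 (difference -1.51, SE 0.12, adjusted p = 1.15e-07). Cdh2, N-cadherin, differed by -1.24, whereas the gelatinase gene Mmp2 (1.24) and the surface glycoprotein gene Thy1 (3.05) were positive through their day 0 levels. Other collagen and matrix genes counted 8 negative and 4 positive of 17, with Col2a1 at -1.004 and Fbn1 at 0.96.

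Retinoic acid, part of the protocol, acts on patterning genes such as the Hox clusters. Of 30 Hox genes tested, 17 had a positive and 5 a negative difference (median 0.49). Hoxb1, an early retinoic acid target of the hindbrain, had 80.2, 79.6 and 66.6 FPKM in the Arf-B, 79.1, 72.7 and 65.6 in the Arf-C and 19.8, 19 and 18.6 in the Ctrlv2 libraries at day 8 and was under 0.1 FPKM on average at day 0 in each line. Its difference was 1.79, SE 0.091, adjusted p = 2.18e-09. Day 0 was near 0, and voom gave the opposite sign (-1.41, adjusted p = 0.217), and Hoxc8 (1.30) was not called by it (2.03, adjusted p = 0.0695). Hoxb13, a gene of the posterior end, had 1.48 ± 0.249 FPKM in Arf-B, 1.54 ± 0.184 in Arf-C and 4.05 ± 0.665 in Ctrlv2 cells at day 8 (difference -1.15, SE 0.15, adjusted p = 2.33e-05). Cdx1, a caudal homeobox factor, had 15.9 ± 3.71 FPKM in Arf-B, 15.7 ± 3.08 in Arf-C and 1.9 ± 0.532 in Ctrlv2 cells at day 8, and 8.99 ± 0.985 FPKM in Arf-B, 11.7 ± 1.03 in Arf-C and 8.29 ± 1.53 in Ctrlv2 cells at day 0 (difference 2.25, SE 0.22, adjusted p = 1.29e-06), and Cdx2 differed by 0.67. Stra6, a retinol transporter, had 18 ± 0.83 FPKM in Arf-B, 18.7 ± 0.732 in Arf-C and 5.8 ± 0.818 in Ctrlv2 cells at day 8 (difference 1.58, SE 0.093, adjusted p = 8.74e-09). Crabp1, a retinoic acid binding protein, differed by 1.53 and Crabp2 by -0.84. Rarg, a retinoic acid receptor, had 14.4 ± 0.372 FPKM in Arf-B, 13.9 ± 0.319 in Arf-C and 9.81 ± 0.958 in Ctrlv2 cells at day 8, and 46.6 ± 2 FPKM in Arf-B, 42.2 ± 2.88 in Arf-C and 68.3 ± 1.79 in Ctrlv2 cells at day 0 (difference 1.10). Rarb, a receptor induced by retinoic acid, was not called (-0.14, SE 0.11, adjusted p = 0.342). Cyp26a1, which degrades retinoic acid, had a difference of -0.51, SE 0.12, adjusted p = 0.00263, with the opposite sign at a pseudocount of 0.1 (0.12) and under voom (1.35, adjusted p = 0.248).

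A second set of large differences came from gaps present in the stem cells. S100a6, a calcium-binding protein, is the clearest. At day 8 the Arf-B libraries had 1.12, 1.1 and 0.906 FPKM, the Arf-C libraries 1.37, 1.33 and 1.2 and the Ctrlv2 libraries 2.18, 1.79 and 1.62. At day 0 the Arf-B libraries had 0.88, 0.865 and 0.502 FPKM, the Arf-C libraries 0.0904, 0.502 and 0.232 and the Ctrlv2 libraries 27.5, 31.1 and 28.7. Ctrlv2 at day 0 was the only high group, above every other library, and the difference of 3.94, SE 0.14, adjusted p = 6.88e-11 goes with its fall in Ctrlv2. Stra8, which retinoic acid induces in germ cells before meiosis, had 668 ± 15.1 FPKM in Arf-B, 707 ± 30.1 in Arf-C and 807 ± 46.1 in Ctrlv2 cells at day 8, and 1.54 ± 0.219 FPKM in Arf-B, 2.34 ± 0.353 in Arf-C and 41.9 ± 6.48 in Ctrlv2 cells at day 0. It rose in all lines to levels of the same order, and the difference of 3.65, SE 0.12, adjusted p = 4.46e-11 lies at day 0. Fbxo2, a ubiquitin ligase subunit that recognises glycoproteins, had 58.9 ± 3.64 FPKM in Arf-B, 61.5 ± 7.88 in Arf-C and 26.7 ± 0.631 in Ctrlv2 cells at day 8, and 11.3 ± 1.45 FPKM in Arf-B, 9.23 ± 0.749 in Arf-C and 56.5 ± 3.14 in Ctrlv2 cells at day 0, so that it rose in the Arf lines and fell in Ctrlv2 (difference 3.496, SE 0.11, adjusted p = 4.46e-11). Further genes of this kind were P2rx3, a purine receptor (2.87), Islr2 (3.13), Tuba3a (3.24), an alpha tubulin with close copies whose reads are uncertain, and Thy1 (3.05). Thy1 alone carried the feeder fibroblast markers, whose sum was 2.35 to 2.98 FPKM in Arf-B, 1.86 to 2.36 in Arf-C and 14.8 to 16.7 in Ctrlv2 cells at day 0, with Col1a1, Col3a1, Postn and Lum below 0.5 FPKM.

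Large negative differences came from gaps at day 0, at day 8 or at both. Setbp1, which encodes a SET-binding protein, had 4.2 ± 0.173 FPKM in Arf-B, 3.68 ± 0.316 in Arf-C and 2.96 ± 0.213 in Ctrlv2 cells at day 8, and 13.1 ± 1.49 FPKM in Arf-B, 12.3 ± 2.28 in Arf-C and 0.187 ± 0.0251 in Ctrlv2 cells at day 0. It fell in the Arf lines and rose in Ctrlv2, and the lines ended close to each other (difference -3.20, SE 0.13, adjusted p = 2.15e-10). Pmel, a melanosome protein gene, was the largest negative difference among named genes. Day 8 libraries of Arf-B gave 2.43, 2.77 and 3.07 FPKM, those of Arf-C 1.37, 1.99 and 2.17 and those of Ctrlv2 25.6, 27.9 and 26.7. Day 0 libraries of Arf-B gave 24.4, 25.6 and 24.2 FPKM, those of Arf-C 32.2, 34.3 and 33.1 and those of Ctrlv2 20.8, 15.4 and 16.9. At day 8 all 6 Arf libraries lay below the 3 Ctrlv2 libraries and at day 0 all 6 lay above them, a difference of -3.77, SE 0.13, adjusted p = 5.3e-11. Fabp3, a fatty acid binding protein, also crossed, with 148 ± 5.93 FPKM in Arf-B, 165 ± 8.66 in Arf-C and 335 ± 37.6 in Ctrlv2 cells at day 8, and 178 ± 4.06 FPKM in Arf-B, 264 ± 32.3 in Arf-C and 64 ± 8.24 in Ctrlv2 cells at day 0 (difference -2.84, SE 0.12, adjusted p = 4.29e-10). Stmn4 and S100g were near 0 in all lines at day 0 and differed at day 8. Stmn4, a microtubule regulator, was listed at 0 in all Arf day 0 libraries and averaged 0.00539 FPKM in Ctrlv2 at day 0. It had 0.756 ± 0.0849 FPKM in Arf-B, 0.511 ± 0.278 in Arf-C and 10.5 ± 0.984 in Ctrlv2 cells at day 8 (difference -2.81). S100g, a vitamin D dependent calcium-binding protein, averaged 0.044 FPKM in Arf-B, 0 in Arf-C and 0.138 in Ctrlv2 cells at day 0. At day 8 it had 0.33 ± 0.323 FPKM in Arf-B, 0.46 ± 0.307 in Arf-C and 6.3 ± 0.196 in Ctrlv2 cells (difference -2.28).

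**Figure D4:**
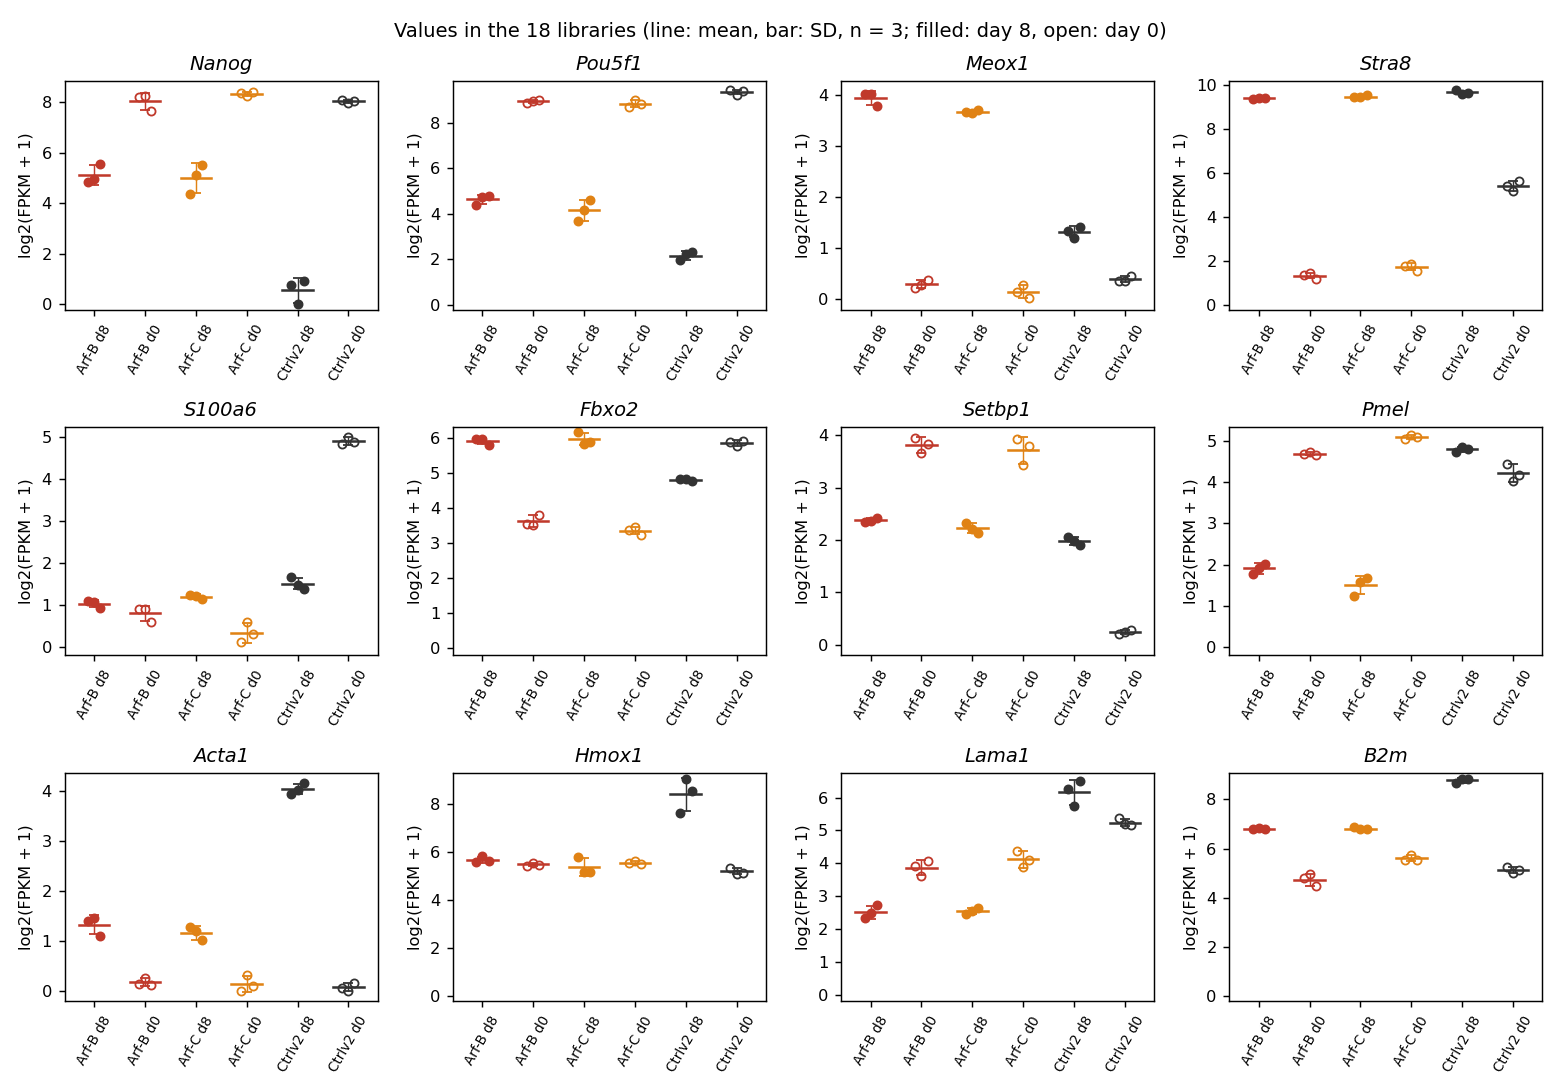
log2(FPKM + 1) of 12 genes in each of the 18 libraries, ordered Arf-B, Arf-C, Ctrlv2 with day 8 (filled) left of day 0 (open); lines are means and bars SD over 3 libraries. Nanog, Pou5f1, Meox1, Acta1, Hmox1 and B2m differ between the Arf lines and Ctrlv2 mostly at day 8, and S100a6, Stra8 and Setbp1 mostly at day 0.

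The p19Arf axis itself showed moderate differences. Of 12 genes 4 were positive and 4 negative (median -0.18). Trp53 had 51.6 ± 1.88 FPKM in Arf-B, 45.6 ± 4.21 in Arf-C and 41.2 ± 2.85 in Ctrlv2 cells at day 8, and 107 ± 5.6 FPKM in Arf-B, 105 ± 2.07 in Arf-C and 129.5 ± 10.9 in Ctrlv2 cells at day 0, so it fell less in the Arf lines (difference 0.51, SE 0.092, adjusted p = 0.000417). Mdm2, both the inhibitor of Trp53 and a transcriptional target of it, had 42.1 ± 0.947 FPKM in Arf-B, 41.1 ± 4.2 in Arf-C and 58.8 ± 3.52 in Ctrlv2 cells at day 8, and 31.3 ± 3.98 FPKM in Arf-B, 31.2 ± 1.69 in Arf-C and 23.4 ± 0.785 in Ctrlv2 cells at day 0 (difference -0.89, SE 0.10, adjusted p = 7.89e-06). Its relative Mdm4 differed by -0.78, SE 0.16, adjusted p = 0.00133. Cdkn1a, which encodes the cell cycle inhibitor p21 and is the best known Trp53 target, had 26.6 ± 1.67 FPKM in Arf-B, 25.1 ± 3.37 in Arf-C and 38.7 ± 3.08 in Ctrlv2 cells at day 8, and 9.98 ± 0.751 FPKM in Arf-B, 11.5 ± 1.89 in Arf-C and 10.7 ± 2 in Ctrlv2 cells at day 0 (difference -0.58, SE 0.16, adjusted p = 0.00742). Npm1 had 691 ± 8.94 FPKM in Arf-B, 678 ± 20.2 in Arf-C and 679 ± 49.6 in Ctrlv2 cells at day 8, and 1106 ± 121 FPKM in Arf-B, 1029 ± 128 in Arf-C and 854 ± 114 in Ctrlv2 cells at day 0 and did not pass the test (-0.31, SE 0.13, adjusted p = 0.0673). It was called without Ctrlv2 day 0 replicate 2 (adjusted p = 0.0188), without replicate 1 of Arf-B (0.0292) or of Arf-C at day 0 (0.0227), and by voom (0.0406).

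Of 29 Trp53 target genes 11 were negative and 5 positive, set beside the 41.7% of all genes, and the median was -0.27. Among those called, the gap was called at day 0 alone for 8 and at day 8 alone for 2. It was called at both days for 3 with the same sign and 3 with opposite sign. Ccng1, cyclin G1, had 136 ± 4.13 FPKM in Arf-B, 132 ± 10.1 in Arf-C and 136 ± 3.67 in Ctrlv2 cells at day 8. At day 0 it had 74.8 ± 12.7 FPKM in Arf-B, 77.2 ± 4.47 in Arf-C and 33.5 ± 3.42 in Ctrlv2 cells (difference -1.18, SE 0.13, adjusted p = 2.94e-06). Trp53inp1, a stress-induced nuclear protein, had day 8 means of 85.4 FPKM in Arf-B, 82.4 in Arf-C and 81.1 in Ctrlv2 (difference -1.03, SE 0.18, adjusted p = 0.000359). Eda2r, a death receptor of the TNF family, had 16.2 ± 0.686 FPKM in Arf-B, 16.3 ± 0.463 in Arf-C and 21.7 ± 1.45 in Ctrlv2 cells at day 8, and 13.7 ± 2.49 FPKM in Arf-B, 12.2 ± 0.769 in Arf-C and 6.9 ± 1.92 in Ctrlv2 cells at day 0 (difference -1.24), and Bax, a pore-forming Bcl2 family member, differed by -0.51. Among the positive ones, Perp, a junctional membrane protein, had 17.8 ± 2.17 FPKM in Arf-B, 20 ± 2.52 in Arf-C and 12.9 ± 1.7 in Ctrlv2 cells at day 8, and 6.91 ± 0.493 FPKM in Arf-B, 6.6 ± 0.96 in Arf-C and 22.4 ± 2.53 in Ctrlv2 cells at day 0 (difference 2.10, SE 0.15, adjusted p = 4.42e-08). Pmaip1, which encodes Noxa, differed by 1.78 through 8.91 ± 1.08 FPKM in Arf-B, 6.4 ± 0.607 in Arf-C and 27.8 ± 2.5 in Ctrlv2 cells at day 0, and the stress sensor gene Sesn1 by 1.20. Bbc3, which encodes Puma, was not called (0.30, SE 0.18, adjusted p = 0.199), except without Arf-C day 0 replicate 2 (adjusted p = 0.0129). In the Bcl2 family list 6 of 17 were positive and 3 negative, Bcl2l1 at 0.94 and Hrk at -1.53. Cell cycle and E2F target genes had 6 positive and 3 negative calls of 27, with Aurkb, a mitotic kinase, at 0.58 and Ccne2, cyclin E2, at -0.67.

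Of 24 germline genes 11 were positive and 5 negative (median 0.44). Rhox13, an X-linked homeobox gene of germ cells, had 0.873 ± 0.355 FPKM in Arf-B, 1.11 ± 0.54 in Arf-C and 15.7 ± 1.41 in Ctrlv2 cells at day 0 and lay between 1.16 and 1.73 FPKM on average at day 8 (difference 3.35, SE 0.29, adjusted p = 3.98e-07). Rhox5 had 1.05 ± 0.68 FPKM in Arf-B, 0.909 ± 0.103 in Arf-C and 30.1 ± 2.74 in Ctrlv2 cells at day 8, and 0.338 ± 0.287 FPKM in Arf-B, 0.0708 ± 0.0802 in Arf-C and 69.3 ± 9.78 in Ctrlv2 cells at day 0, and its gap was called at both days (difference 1.88, SE 0.23, adjusted p = 1.33e-05). Mael, a piRNA pathway gene, differed by 1.55. Of 38 imprinted genes, expressed from 1 parental allele, 17 were negative and 7 positive (median -0.22). Peg10 had 4.3 ± 0.348 FPKM in Arf-B, 14.5 ± 1.45 in Arf-C and 407 ± 45.7 in Ctrlv2 cells at day 8, and 0.402 ± 0.141 FPKM in Arf-B, 0.294 ± 0.0419 in Arf-C and 21 ± 2.04 in Ctrlv2 cells at day 0, a wide gap at both days, and its difference of -1.46, SE 0.12, adjusted p = 1.88e-07 had the opposite sign under voom (0.29, adjusted p = 0.247). Its neighbour Sgce had 0.0272 ± 0.0174 FPKM in Arf-B, 0.119 ± 0.0308 in Arf-C and 4.82 ± 0.0834 in Ctrlv2 cells at day 8, and 0.0138 ± 0.00542 FPKM in Arf-B, 0.0178 ± 0.00931 in Arf-C and 0.613 ± 0.0786 in Ctrlv2 cells at day 0 (difference -1.77, SE 0.081, adjusted p = 5.75e-10). Mest had 1.34 ± 0.173 FPKM in Arf-B, 3.29 ± 0.346 in Arf-C and 53.8 ± 2.4 in Ctrlv2 cells at day 8 (difference -1.57, SE 0.11, adjusted p = 5.56e-08), and H19 had 4.14 ± 0.469 FPKM in Arf-B, 4.28 ± 0.601 in Arf-C and 17.3 ± 3.75 in Ctrlv2 cells at day 8 (difference -1.71), not called by voom (-1.03, adjusted p = 0.199). Among methylation genes Dnmt3b, a de novo methyltransferase, differed by 1.14, its cofactor gene Dnmt3l by -1.20, Dnmt3a by -0.91 and Zfp57, which protects imprints, by 0.97.

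Signalling lists were mixed in sign. Of 22 Fgf pathway genes 12 were positive and 4 negative (median 0.44). Fgf17 had 4.58 ± 1.56 FPKM in Arf-B, 2.27 ± 0.358 in Arf-C and 11 ± 0.449 in Ctrlv2 cells at day 0 (difference 1.53), and Dusp4, a phosphatase that dampens Erk, had 7.12 ± 0.703 FPKM in Arf-B, 7.47 ± 0.806 in Arf-C and 9.73 ± 0.628 in Ctrlv2 cells at day 8, and 11.2 ± 2.72 FPKM in Arf-B, 12.5 ± 1.28 in Arf-C and 3.1 ± 0.539 in Ctrlv2 cells at day 0 (difference -2.02, SE 0.17, adjusted p = 2.04e-07). Of 16 Nodal and activin genes 6 were negative and 3 positive. Inhbb, an activin subunit, had 11.2 ± 0.196 FPKM in Arf-B, 8.66 ± 0.404 in Arf-C and 40.2 ± 0.444 in Ctrlv2 cells at day 0 (difference 2.05, SE 0.12, adjusted p = 1.07e-08), and Fst, which binds activin, had 0.256 ± 0.0491 FPKM in Arf-B, 0.35 ± 0.202 in Arf-C and 2.25 ± 0.782 in Ctrlv2 cells at day 8, and 2.59 ± 0.231 FPKM in Arf-B, 3.1 ± 0.465 in Arf-C and 0.725 ± 0.0632 in Ctrlv2 cells at day 0 (difference -2.45, SE 0.18, adjusted p = 7.75e-08). In the Bmp list of 22, with 5 positive and 6 negative, the ligand gene Bmp4 had 5.65 ± 0.242 FPKM in Arf-B, 5.71 ± 0.45 in Arf-C and 3.1 ± 0.766 in Ctrlv2 cells at day 8, and 35.1 ± 3.57 FPKM in Arf-B, 39.3 ± 3.8 in Arf-C and 94.7 ± 9.77 in Ctrlv2 cells at day 0 (difference 2.05, SE 0.15, adjusted p = 5.17e-08). Its target Id3 differed by -1.58 and Id2 by -1.03, while Id1 differed by 0.93. Of 20 Wnt genes 7 were positive and 6 negative, among them the ligand gene Wnt6 (2.30) and the receptor genes Fzd10 (1.70) and Fzd7 (-1.44). In the Notch list 4 of 14 were positive and 4 negative, with the ligand gene Jag1 at -1.41 and the target Hes1 at 0.67. Of 18 Yap and Tead targets 7 were negative and 4 positive. F3, tissue factor, had 7.53 ± 0.304 FPKM in Arf-B, 7.45 ± 1.58 in Arf-C and 33 ± 5.02 in Ctrlv2 cells at day 8 (difference -1.92, SE 0.15, adjusted p = 1.62e-07).

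Other lists held single genes with large differences. B2m, the light chain of MHC class I, had 111 ± 1.42 FPKM in Arf-B, 111 ± 3.02 in Arf-C and 436 ± 28.4 in Ctrlv2 cells at day 8, and 25.9 ± 4.46 FPKM in Arf-B, 47.7 ± 4.14 in Arf-C and 34 ± 2.74 in Ctrlv2 cells at day 0 (difference -2.01, SE 0.12, adjusted p = 1.03e-08), in a list where 4 of 12 were negative and 2 positive. Meox1, a homeobox gene of somites, had 14.4 ± 1.35 FPKM in Arf-B, 11.7 ± 0.222 in Arf-C and 1.51 ± 0.181 in Ctrlv2 cells at day 8 (difference 2.65, SE 0.10, adjusted p = 1.52e-10), and of the same mesoderm and heart list Myl7, an atrial myosin light chain, differed by -1.43 and Nkx2-5, a cardiac homeobox factor, by -0.91. Of 27 glucose uptake and glycolysis genes 10 were positive and 3 negative (median 0.35), with Slc2a1, the glucose transporter Glut1, at 1.18, SE 0.12, adjusted p = 2.67e-06, from 33.2 ± 4.69 FPKM in Arf-B, 35.5 ± 1.04 in Arf-C and 90.2 ± 5.81 in Ctrlv2 cells at day 0. Nucleolar ribosome assembly genes counted 10 positive and 4 negative of 25 (median 0.11), and cholesterol synthesis genes 4 and 2 of 23. Insig1 (-0.63, SE 0.21, adjusted p = 0.0271) lost its call without Ctrlv2 day 0 replicate 1 or 3 or Ctrlv2 day 8 replicate 2 or 3, with adjusted p from 0.0522 to 0.0765, with no filter (0.0577) and under voom (0.0521). In the neural list 5 of 13 were positive and 4 negative, with the axonal genes Mapt at 1.56 and Gap43 at -2.40. Tfap2c, a factor of trophoblast and germ cells, had 6.45 ± 1.45 FPKM in Arf-B, 5.93 ± 1.56 in Arf-C and 4.72 ± 0.996 in Ctrlv2 cells at day 8, and 11.9 ± 2.6 FPKM in Arf-B, 12.9 ± 0.893 in Arf-C and 1.95 ± 0.312 in Ctrlv2 cells at day 0 (difference -1.85, SE 0.24, adjusted p = 1.86e-05), in a trophoblast list with 3 positive and 4 negative of 15.

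**Figure D5:**
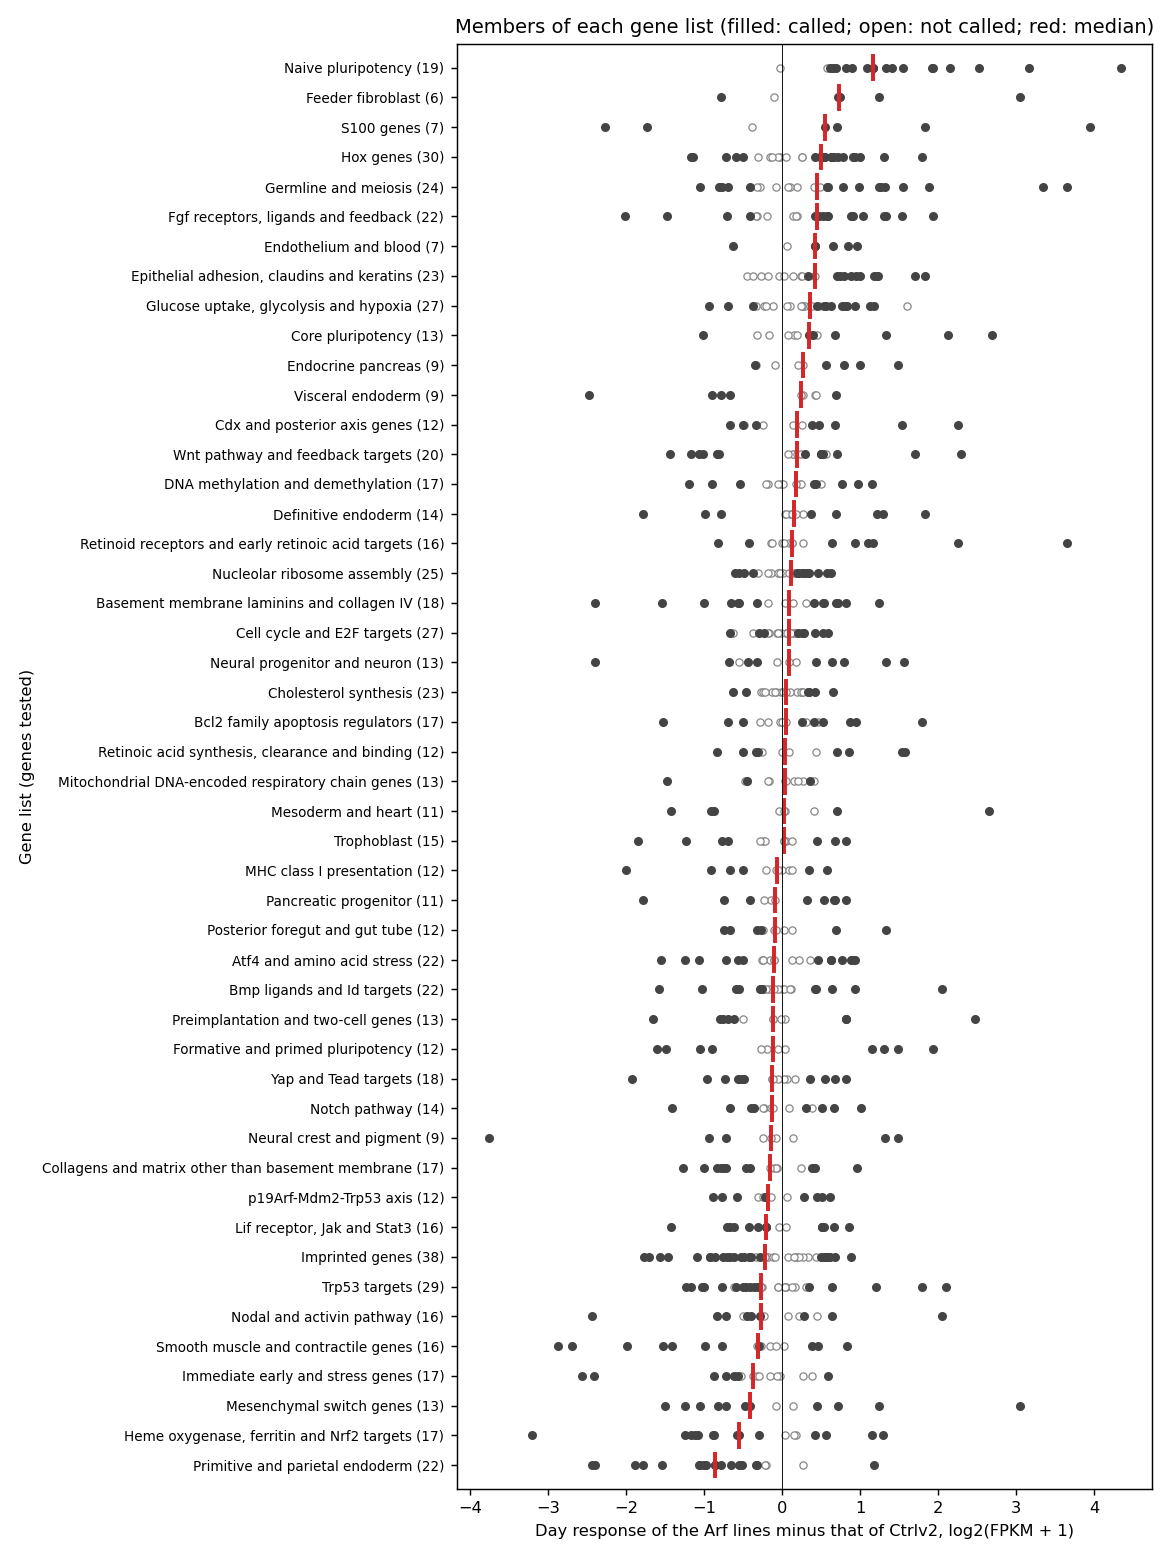
Day response of the Arf lines minus that of Ctrlv2 on log2(FPKM + 1) for each tested member of the 48 gene lists, ordered by the list's median (red). Naive pluripotency genes lie at the top with a median of 1.17, and primitive and parietal endoderm genes at the bottom with -0.86; the median of all 17200 genes was 0.00.

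Of the 4 genes whose response differed between Arf-B and Arf-C, Peg10 rose more in Arf-C, to 14.5 ± 1.45 FPKM, against 4.3 ± 0.348 in Arf-B at day 8 (Arf-B minus Arf-C -1.66, SE 0.14, adjusted p = 5.63e-05). Lefty2, an inhibitor of Nodal, had 2.29 ± 0.827 FPKM in Arf-B, 0.267 ± 0.26 in Arf-C and 3.22 ± 0.461 in Ctrlv2 cells at day 8, and 24.7 ± 5.35 FPKM in Arf-B, 29.6 ± 2.02 in Arf-C and 41.6 ± 0.717 in Ctrlv2 cells at day 0 (Arf-B minus Arf-C 1.64, SE 0.25, adjusted p = 0.0352). Its averaged difference from Ctrlv2 did not pass the test (-0.45, SE 0.21, adjusted p = 0.104), but did without Arf-B day 8 replicate 3 (adjusted p = 0.0286) or Arf-C day 8 replicate 3 (0.046). It was also called with a pseudocount of 0.1 (-1.34, adjusted p = 0.0315) and by voom (-1.66, adjusted p = 0.00581). Trpm1, an ion channel gene of pigment and retinal cells, had 2.15 ± 0.0612 FPKM in Arf-B, 5.15 ± 0.268 in Arf-C and 0.672 ± 0.165 in Ctrlv2 cells at day 0 and under 0.05 FPKM at day 8 (Arf-B minus Arf-C 0.98, SE 0.10, adjusted p = 0.000906). For Nanog the Arf-B minus Arf-C value was 0.41 with a 95% interval of -0.45 to 1.27, and for Lama1 it was 0.22 (-0.30 to 0.74).

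By level, the share of genes called was 26.5% below a mean of 1 FPKM and 49.6% between 5 and 20 FPKM. Protein-coding genes were called in 48.3% of cases, processed pseudogenes in 11.6%. Medians per chromosome, over genes averaging 1 FPKM or more, lay between -0.12 on the Y chromosome (8 genes) and 0.06 on chromosome 11. Segments were looked at where earlier results had shown a gap. Over the 128 genes of chromosome 14 from 60 to 80 megabases (mm10), the median gap of the Arf lines was -0.83 at day 8 and -0.81 at day 0. Over the 204 genes of chromosome 2 from 115 to 145 megabases it was -0.43 at day 8 and -0.39 at day 0. The median difference in response was 0.00 in each segment, but single genes differed in both directions, with 42 positive and 38 negative calls on the chromosome 14 segment (62.5% of its genes) and 49 positive and 46 negative on that of chromosome 2 (46.6%).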

How the data were processed

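The authors deposited FPKM values for 18 RNA-seq libraries with gene lengths. HISAT2, featureCounts, DESeq2 and mm10 are named in the submitters' processing notes, with no versions or roles. Positions matched GENCODE vM21 for 98.11% of genes. FPKM times length gave whole reads for all 413772 values above 0 (tolerance 0.001 reads), used in the scaling, voom and thinning alternatives alone. The library size implied by the values was 0.953 to 1.10 times the reads on genes, below them at day 0 and above them at day 8. The deposited values were thus not scaled by that read total, and how they were scaled is not stated. Values were taken as log2(FPKM + 1), a scale that understates changes of low genes. They were fitted with limma 3.58.1 in R 4.3.3, 1 coefficient per group and trended, robust empirical Bayes, with Benjamini-Hochberg adjustment over all genes that passed the filter.

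Replicate numbers have no stated meaning and did not pair the day 0 and day 8 libraries of a line, so no block was used.

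Genes were named by rule: 6 of the p19Arf axis, the 12 largest per direction called in both Arf lines and reaching 5 FPKM, the largest between the Arf lines, and up to 4 called members of each of 48 lists. Outside it, chosen after their values were seen, are Foxa2, Sox17, Gata6, Cxcr4, Cyp26a1, Rarb, Zfp42, Klf4, Lamb1, Dab2, Pth1r, Cdh1, Ccng1, Trp53inp1, Bbc3, Bax, Actc1, Gapdh, Pdx1, Tbx3, Sall4, Lin28a and L1td1. The comparison and the lists were chosen with earlier results of these data known. Promoter windows come from RefSeq (GRCm38.p6).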

Additional observations from a re-analysis of the deposited data

Results flagged for a closer look

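The response to differentiation differed between the Arf lines themselves for 3 named genes, by a test of that difference (limma, adjusted over 17200 genes), where 4 genes passed in all. For Peg10 Arf-B minus Arf-C was -1.66 (adjusted p = 5.63e-05): all 3 Arf-C libraries at day 8 (15.7, 14.9 and 12.9 FPKM) lay above the 3 of Arf-B (4.14, 4.06 and 4.7 FPKM). For Lefty2 it was 1.64 (adjusted p = 0.0352), with 1.6, 2.06 and 3.2 FPKM in Arf-B and 0.0463, 0.201 and 0.554 FPKM in Arf-C at day 8. For Trpm1 it was 0.98 (adjusted p = 0.000906), and the lines differed at day 0, with 2.22, 2.09 and 2.14 FPKM in Arf-B and 5.04, 5.46 and 4.96 FPKM in Arf-C. The cause was not tested.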

How the results depend on the processing

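The counts of genes with a positive difference (3669) and with a negative one (3502) stayed within 1.5 times under all 27 alternatives, between 3161 and 3756 and between 3118 and 3539 when 1 library was left out. Counts at 2-fold were 573 to 636 upwards and 359 to 550 downwards without 1 library, but reached 1461 and 879 with a pseudocount of 0.1, and 1470 and 917 with voom on whole reads; a pseudocount of 1 shrinks changes of low genes by construction. The 4 genes that differed between Arf-B and Arf-C became 11 with a pseudocount of 0.1, 12 with no filter, 10 for genes averaging 1 FPKM or more, 7 with median-ratio scaling, 11 with same-sum scaling, 11 with voom, and 3 to 9 without 1 library. The replicate block gave 3360 positive and 3217 negative calls, and Lefty2 was called with it (-0.45, adjusted p = 0.0384). Same-numbered day 0 and day 8 libraries of a line correlated at -0.157 to 0.191 in 9 pairs, 1 above 0.1. Only 1 of 9 day 8 libraries matched its own number best, so the numbers do not pair the days within a line. That check does not compare lines. At day 8 Dppa5a rose with the number in Arf-B (492, 521 and 659 FPKM) and Arf-C (410.5, 532 and 665), but not in Ctrlv2 (79.8, 58.6 and 68.5). Whether the numbers mark a batch shared between lines was not tested. Of the named genes, these turned sign with voom: Peg10 (0.29), Hoxb1 (-1.41), Hnf4a (-0.77), Col6a1 (2.05), Myl9 (0.20), Fosl2 (0.63), Rhox6 (0.56), Kdr (0.0635), Gata6 (0.0093) and Cyp26a1 (1.35). Rhox6 (0.21) and Cyp26a1 (0.12) also turned with a pseudocount of 0.1. All these averaged below 1 FPKM in at least 1 group. The 18 lists with a median beyond 0.25 kept its sign in every alternative, and 12 of the others changed sign in at least 1. Ctrlv2 at day 8 is the shallowest group, so low genes are least certain there.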

Other observations

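Gapdh, often used as a reference transcript, spread widely between replicates and was not called (difference 1.60, SE 1.41, adjusted p = 0.396). Its libraries read 39.7, 3.98 and 3.91 FPKM in Arf-B, 3.61, 38.8 and 3.35 FPKM in Arf-C and 2.89, 14.2 and 2.37 FPKM in Ctrlv2 cells at day 8. At day 0 they read 71.5, 13 and 6.13 FPKM in Arf-B, 15.7, 99.1 and 73.6 FPKM in Arf-C and 106, 88 and 18.7 FPKM in Ctrlv2 cells. It has many near-identical pseudogene copies, and the sources used here do not say how reads were divided among them.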
